A study of Rattus norvegicus with 8 samples.

Results

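Growth hormone binds the growth hormone receptor on hepatocytes and, through the kinase JAK2 and the transcription factor STAT5B, drives the liver's output of insulin-like growth factor 1 (IGF-1) into the blood. Here 10 genes of this axis were followed in laser-dissected hepatocyte populations of regenerating rat livers: the receptor Ghr, the transcription factor Stat5b, the feedback inhibitor Socs2, the hormone Igf1 with its carrier subunit Igfals, the binding proteins Igfbp1, Igfbp2, Igfbp3 and Igfbp4, and the receptor Igf1r. They were chosen by gene name on the array and were read by 17 of its 45598 probes, of which 16 were bright enough to be tested. The array names 27110 genes in all.

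The livers were those of F344 rats given retrorsine, an alkaloid that stops hepatocytes from dividing, followed by partial hepatectomy (PH), a treatment after which small hepatocyte-like progenitor cells (SHPCs) form clusters. Per the methods, recipients were female and the bone marrow-derived mesenchymal cells (BM-MCs), from a male donor, were delivered to the liver by way of the spleen. The labels name the DPPIV+ strain for every sample, whereas the methods give a DPPIV- strain for the female rats. Age and time of dissection are not given in the labels, although the methods state a fixed time after transplantation at which recipients were killed. By their labels, mature hepatocytes (MHs, n = 2) and control SHPC clusters (n = 3) came from control recipients, and the third group was SHPC clusters from recipients that had received BM-MCs (n = 3). All 3 groups thus carry retrorsine and PH as far as the sources tell, and no label ties a sample to an animal, so that the p-values below speak of the differences between samples of a group, whether biological or technical. RNA was hybridised to 1-colour Agilent arrays. Values below are log2 signals from which the 75th percentile of the array was taken, a scale on which 1 unit is a 2-fold difference and on which levels of different probes cannot be set against each other.

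The 8 arrays lay on 1 slide in 2 sets: both MHs with control SHPC samples 1 and 2, and control SHPC sample 3 with the 3 samples given BM-MCs. Between 57.0% and 61.5% of spots were well above background on the 7 arrays with complete marks. The marks of control SHPC sample 2 were incomplete. All 9 hepatocyte markers were tested, and their summed linear signal, in multiples of the 75th percentile, was 967 to 1000 in MHs, 945 to 1180 in control SHPCs and 866 to 1100 in SHPCs with BM-MCs. The summed signal of 9 Kupffer cell and macrophage markers was 96.1 to 99.3 in MHs, 47.6 to 69.0 in control SHPCs and 59.0 to 84.9 in SHPCs with BM-MCs. That of 7 sinusoidal endothelial markers was 16.3 to 19.2, 13.7 to 15.8 and 15.8 to 17.8 in the same order. The 9 stellate cell and fibroblast markers, with Lum not well above background on any array, summed to 9.01 to 9.78, 7.43 to 8.31 and 7.57 to 11.7. The 3 erythroid markers summed to 13.4 and 28.6 in MHs and 20.4 to 71.4 in control SHPCs, with sample 3 the highest. In SHPCs with BM-MCs they summed to 10.2 to 14.1. Hba-a1, Hbb and Alas2 differed from controls by -1.45, -1.63 and -1.25 with BM-MCs (adjusted p = 0.25 to 0.32 by limma). The 5 granulocyte and leukocyte markers summed to 4.86 and 6.38, 4.72 to 6.08 and 3.83 to 4.28. With BM-MCs, S100a8, S100a9 and Retnlg differed from controls by -1.45, -1.83 and -1.29 (adjusted p = 0.068 to 0.11 by limma). Ptprc and Lyz2, the rest of this set, differed by 0.11 and -0.20, with overlap. At an unadjusted p under 0.05 (limma), 3 of the 5 were called, beside 16.6% of all probes in either direction. All 5 biliary markers tested had means above those of MHs in both SHPC groups. Of all probes, 40.5% lay above 0 in control SHPCs against MHs and 45.1% with BM-MCs against MHs. No biliary marker passed the adjusted threshold (limma). Krt7 was not well above background in any control, and Cftr was in only 1 sample with BM-MCs. The sums over 6 biliary markers were 0.312 and 0.371 in MHs and 0.432 to 0.564 in the 6 SHPC samples. Such sums are led by their brightest probes, Lyz2 in the granulocyte and leukocyte set. The part of these other cells in the results below was not tested.

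No gene of the axis passed an adjusted p of 0.05 in any of the 3 comparisons (limma, Benjamini-Hochberg adjustment over 23111 probes). The background was low: 0.0216% of all tested probes passed between SHPCs with and without BM-MCs, 1.16% between control SHPCs and MHs, and 0.281% when the SHPCs with BM-MCs were set against MHs. At an unadjusted p under 0.05, Ghr, Igf1r and Socs2 were above control SHPCs where BM-MCs had been given, 3 of 10 genes against 11.1% of all tested probes. In control SHPCs against MHs, Ghr, Igf1, Igf1r and Socs2 were lower at that threshold, 4 of 10 genes against 13.9% of probes. None of the 10 reached it in the SHPCs with BM-MCs against MHs, where 14% of probes did in either direction. In either direction the share was 16.6% with BM-MCs and 20.2% in control SHPCs against MHs. Beside the limma counts of 0, the methods' t-test called Ghr and Socs2 with BM-MCs and Igf1 in control SHPCs against MHs without adjustment, where 8.33% of all probes were called higher and 12.1% lower, and no gene after it. In clusters whose RNA is read as a whole, fewer cells of a type and less RNA per cell cannot be told apart.

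**Figure D1:**
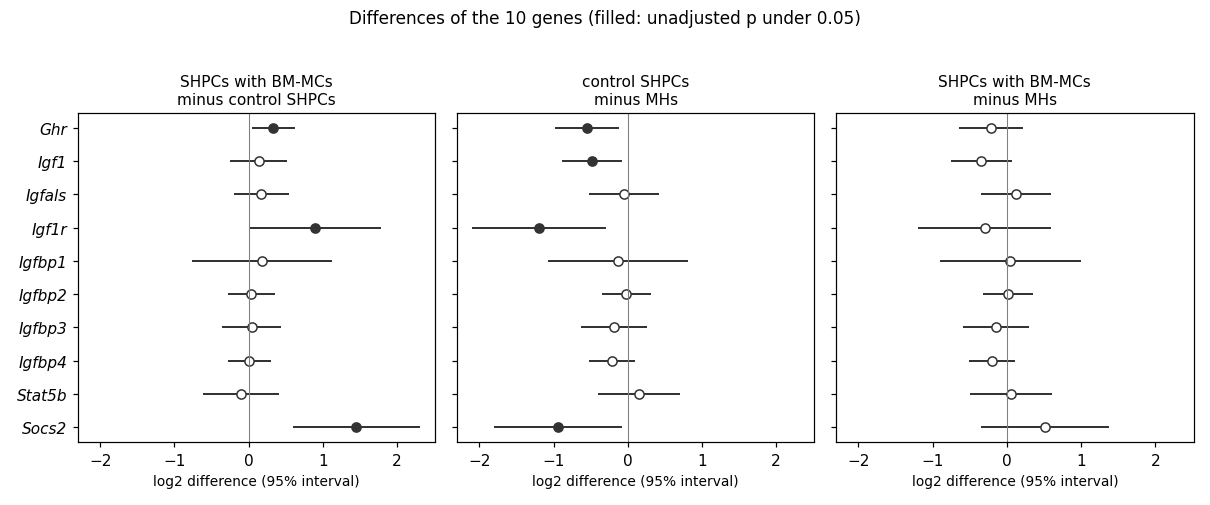
Log2 differences of the 10 genes (points, with 95% intervals from limma) in the 3 comparisons; filled points have an unadjusted p under 0.05. Ghr, Igf1r and Socs2 lie above 0 in SHPCs with BM-MCs minus control SHPCs and below 0 in control SHPCs minus MHs.

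The median log2 difference of the 10 genes with BM-MCs was 0.15, beside 0.027 for all tested probes, and 9 of the 10 differences lay above 0 (53.8% of all probes), although only 3 did when each array was scaled to its median, which moved the all-probe median to -0.16. Between control SHPCs and MHs the median of the axis was -0.20, beside -0.08 for all probes (40.5% above 0), with 9 of 10 genes below 0 under both scalings and 7 of 10 under quantile normalization. For SHPCs with BM-MCs against MHs it was -0.066 beside -0.037, with 5 genes on either side of 0 and 45.1% of probes above it. Groups did not overlap for 2 genes with BM-MCs, both higher (13.4% of all probes), and for 5 in control SHPCs against MHs, all lower (27% of probes). In the SHPCs with BM-MCs against MHs, Socs2 was higher without overlap (13.2% of probes), and Igf1, Igf1r and Igfbp4 were lower without it (20.8%). The 3 comparisons share samples and are not independent of each other.

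**Figure D2:**
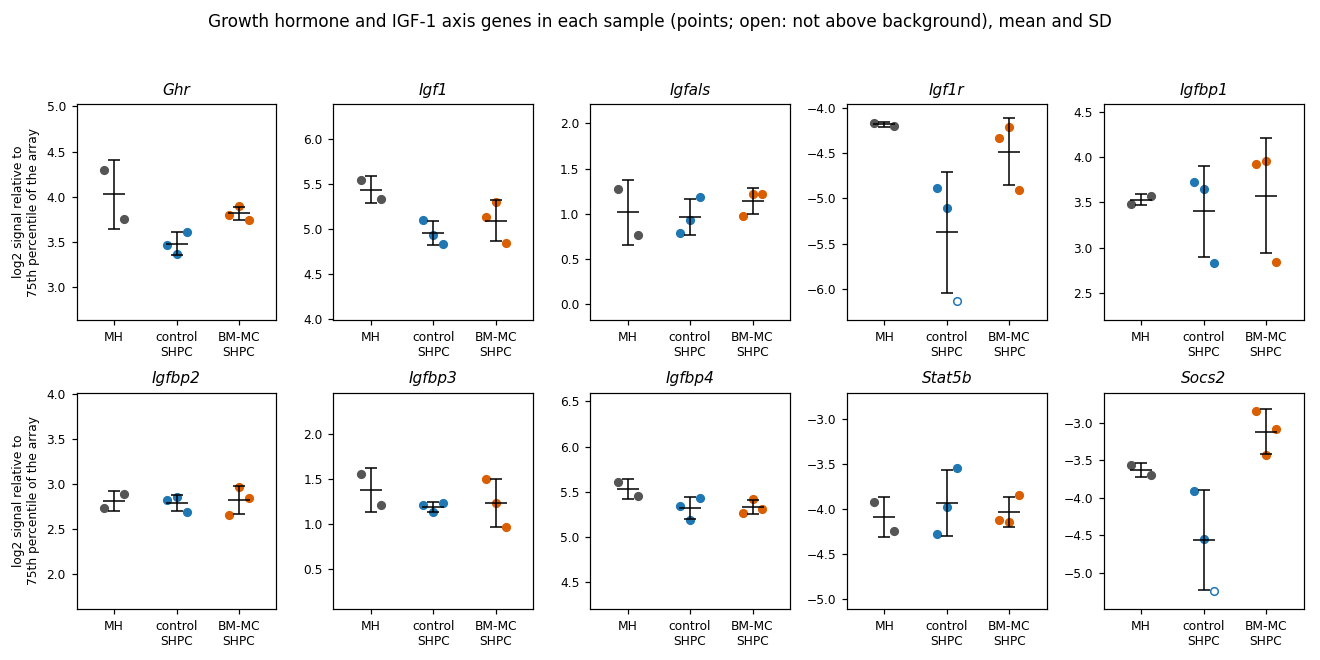
Log2 signal of each gene's brightest tested probe relative to the 75th percentile of the array in MHs (grey, n = 2), control SHPCs (blue, n = 3) and SHPCs with BM-MCs (orange, n = 3), with the mean and SD in black; open points were not well above background, and vertical scales differ between genes. Control SHPC sample 2 is drawn filled also where it had no mark, as for Socs2 and Igf1r. The SHPCs with BM-MCs sit above every control SHPC for Ghr and Socs2.

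Socs2, which encodes the inhibitor induced by growth hormone that damps the receptor's signal, had the largest difference of the 10 genes between SHPC groups. Its log2 signal was -2.84, -3.43 and -3.08 in the SHPCs with BM-MCs, -3.91, -4.55 and -5.25 in control SHPCs, and -3.56 and -3.70 in MHs. Every sample with BM-MCs was thus above both MHs, and both MHs were above every control. The signal of control sample 3, the lowest, was not well above background, and control sample 2 had no mark for this probe. The log2 difference with BM-MCs was 1.45 (SE 0.35, 2.73-fold, 95% interval 0.61 to 2.29), with an unadjusted p of 0.0054 and an adjusted p of 0.17 (limma). It was 1.11 without control sample 3 and 2.13 against control sample 3 alone, the sole control in the same set of arrays. Background correction by normexp with quantile normalization, which left out control sample 2, gave 0.74. Against MHs, control SHPCs differed by -0.94 (SE 0.36, adjusted p = 0.21 by limma), or -0.50 after normexp and -0.60 without control sample 3, and SHPCs with BM-MCs by 0.51 (adjusted p = 0.54 by limma). The erythroid sum was also highest in control sample 3, and its part in the Socs2 values was not tested.

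Ghr, the receptor itself, was read by 3 probes. On the brightest its log2 signal was 3.80, 3.90 and 3.75 in SHPCs with BM-MCs, 3.46, 3.36 and 3.61 in control SHPCs, and 4.30 and 3.75 in MHs. The SHPC groups did not overlap, and both MHs lay above the controls. The log2 difference with BM-MCs was 0.33 (SE 0.12, 1.26-fold), with an unadjusted p of 0.026 and an adjusted p of 0.26 (limma), and it was 0.14 with arrays scaled to their median. Control SHPCs differed from MHs by -0.54 (SE 0.18, adjusted p = 0.17 by limma), which became -0.27 without MH sample 1 and -0.82 without MH sample 2. Within the set of arrays that held control sample 3 and the SHPCs with BM-MCs the difference was 0.20, and within the set that held MHs and controls 1 and 2 it was -0.61. The next probe gave 0.40 with BM-MCs, again with no overlap, and -0.31 for control SHPCs against MHs. The third probe gave -0.076 and -0.089, so that the 3 probes of Ghr did not give 1 pattern. By the coordinates in the scanner file, whose header names build rn4, the first probe lies at chr2:52495400-52495459, the second at chr2:52496746-52496805 and the third at chr2:52524230-52524289, on the minus strand. The third probe is therefore nearer to the 5′ end of the gene than the others.

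Stat5b, which carries the receptor's signal to the nucleus, was at -3.93 and -4.24 in MHs, -4.27, -3.98 and -3.54 in control SHPCs, and -4.12, -4.14 and -3.84 in SHPCs with BM-MCs. All 3 groups overlapped. The difference with BM-MCs was -0.10 with a 95% interval of -0.61 to 0.40, which leaves room for changes of up to about that size in either direction.

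Igf1, the hormone that the axis delivers, was read by 5 probes, 1 of them printed in 10 copies on the array. On this probe, the brightest, the log2 signal was 5.54 and 5.33 in MHs, 5.10, 4.94 and 4.83 in control SHPCs, and 5.13, 5.30 and 4.84 in SHPCs with BM-MCs. Every control SHPC lay below both MHs, by a log2 difference of -0.48 (SE 0.17, 1.39-fold lower), with an unadjusted p of 0.024 and an adjusted p of 0.19 (limma). The same held for all 5 probes, with differences from -0.59 to -0.40, no overlap on any of them, and a lowest adjusted p of 0.11. Probes of 1 gene on the same arrays share their RNA and are not separate tests. With the sets of arrays kept apart the difference on the brightest probe was -0.42. The Kupffer and endothelial sums were lower in control SHPCs than in MHs as well, and their part in the Igf1 values was not tested.

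With BM-MCs, Igf1 on the brightest probe differed from control SHPCs by 0.13 (SE 0.15, adjusted p = 0.68 by limma), with overlapping groups, and by -0.057 when arrays were scaled to their median. The other 4 probes gave 0.11 to 0.50, and on 3 of the 5 the groups did not overlap. Those 3 probes had adjusted p-values of 0.24 to 0.25. Against MHs, all 5 probes were below 0 in SHPCs with BM-MCs, by -0.34 to -0.092, with no overlap on 2. Igf1 in SHPCs with BM-MCs therefore lay between the means of the other 2 groups on each probe, and neither step in that order passed the adjusted threshold.

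**Figure D3:**
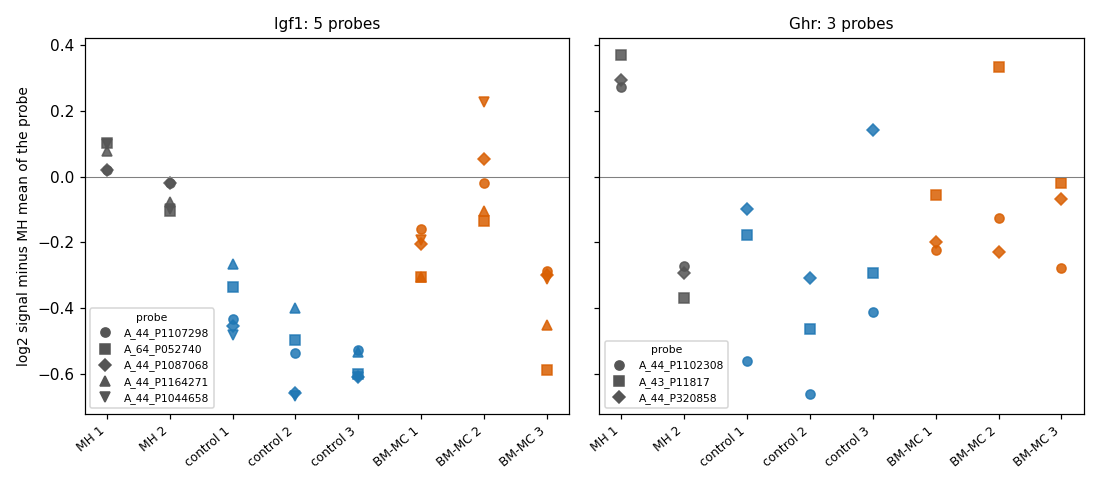
Log2 signal of the 5 probes of Igf1 (left) and the 3 of Ghr (right) in each sample, minus the mean of the 2 MHs for the same probe; each marker shape is a probe, and colours give the group. All 5 Igf1 probes are below the MHs in the 3 control SHPCs, while the third Ghr probe, A_44_P320858, overlaps between groups.

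Igfals encodes the acid-labile subunit, which joins IGF-1 and its main binding protein in the long-lived complex of the blood. Its log2 signal was 1.27 and 0.76 in MHs, 0.79, 0.93 and 1.18 in control SHPCs, and 0.97, 1.22 and 1.22 in SHPCs with BM-MCs. The groups overlapped in every comparison, and the difference with BM-MCs was 0.17 (95% interval -0.19 to 0.53), or -0.021 with arrays scaled to their median. In control SHPCs against MHs it differed by -0.051 (95% interval -0.51 to 0.41), beside -0.48 for Igf1, and the difference between the 2 genes was not tested.

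Igf1r, the receptor for IGF-1, is known to be scarce on adult hepatocytes. Of its 2 probes, 1 was not well above background on any array with marks and was not tested. The other was at -4.16 and -4.20 in MHs, -4.89, -5.10 and -6.14 in control SHPCs, and -4.33, -4.21 and -4.90 in SHPCs with BM-MCs. Control SHPCs lay below both MHs, by -1.20 (SE 0.38, unadjusted p = 0.015, adjusted p = 0.16 by limma). With BM-MCs the difference from controls was 0.90 (SE 0.36, unadjusted p = 0.047, adjusted p = 0.30 by limma), although BM-MC sample 3 lay just within the range of the controls. Control sample 3 was not well above background for this probe, and control sample 2 had no mark for it. Without control sample 3 the differences were -0.82 and 0.51. The lowest signal well above background on the array of control sample 3 was -5.57, above its value for Igf1r, and with dim spots raised to that floor the differences were -1.005 and 0.70. After normexp they were -0.51 and 0.28, and within the set of arrays that held control sample 3 and the SHPCs with BM-MCs the latter was 1.66. The order of the means for Igf1r was MHs, then SHPCs with BM-MCs, then control SHPCs. Igf1, the brightest Ghr probe, Igfbp3 and Igfbp4 had this order too, and its share over all probes was not counted.

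The 4 binding proteins measured here carry IGF-1 and set how much of it is free. Igfbp1, which insulin represses in liver, spread most. Its log2 signal was 3.49 and 3.58 in MHs, 3.72, 3.65 and 2.82 in control SHPCs, and 3.93, 3.96 and 2.84 in SHPCs with BM-MCs. In both SHPC groups sample 3 was lower than the other 2 samples, while those 4 samples were above both MHs. The difference with BM-MCs was 0.18 with a wide interval, -0.75 to 1.11, and without control sample 3 it was -0.11. Igfbp3, the main carrier in blood, was at 1.55 and 1.21 in MHs, 1.21, 1.13 and 1.23 in control SHPCs, and 1.49, 1.23 and 0.96 in SHPCs with BM-MCs. In the same order of samples the stellate cell and fibroblast sum was 9.01 and 9.78, 8.25, 7.43 and 8.31, and 11.7, 8.92 and 7.57. Its part in the Igfbp3 values was not tested. Igfbp2 stayed within 2.66 to 2.97 in all 8 samples, with a difference of 0.034 with BM-MCs (95% interval -0.27 to 0.34). Igfbp4 was 5.61 and 5.46 in MHs and between 5.19 and 5.43 in the 6 SHPC samples, so that both SHPC groups lay below the MHs, by -0.21 each (adjusted p = 0.38 and 0.48 by limma). Between SHPC groups Igfbp4 differed by 0.0089 (95% interval -0.27 to 0.29).

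The promoters of Igfbp1 and Igf1 are shown because they were the 2 of 9 axis promoters in the RefSeq table that held CAAAACA, the core of the insulin-responsive element bound by FOXO factors. Windows ran from 250 bases before to 50 bases after the start of the gene, on build GRCr8, and both strands were searched. The motif was held by 6.28% of 33469 windows of that length. Socs2 had no entry in the table. The 250 bases before the start are printed below with the motif in capitals; it lies from -121 to -115 in Igfbp1 and from -67 to -61 in Igf1. A match is a run of letters and not evidence of binding.
Igfbp1, GRCr8 chr14:86261027-86261276, plus strand: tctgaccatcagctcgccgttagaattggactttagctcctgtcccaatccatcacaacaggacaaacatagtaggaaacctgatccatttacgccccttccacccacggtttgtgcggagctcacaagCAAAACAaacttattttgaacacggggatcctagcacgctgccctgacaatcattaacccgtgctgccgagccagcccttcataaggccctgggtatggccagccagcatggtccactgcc
Igf1, GRCr8 chr7:24172282-24172531, plus strand: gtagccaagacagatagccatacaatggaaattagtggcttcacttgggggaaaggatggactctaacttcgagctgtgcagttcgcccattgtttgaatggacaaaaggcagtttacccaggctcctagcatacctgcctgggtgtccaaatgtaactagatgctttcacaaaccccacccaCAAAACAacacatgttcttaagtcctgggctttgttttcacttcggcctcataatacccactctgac

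Igfbp1 was read beside 8 other genes of insulin and FOXO1 response, a list that holds enzymes of glucose production and their regulators. In both SHPC groups sample 3 was the highest of 3 for Pck1, the rate-limiting enzyme of gluconeogenesis, Ppargc1a, its coactivator, and Tat, tyrosine aminotransferase, and the lowest of 3 for Pdk4, as it was for Igfbp1. Over all probes, 20.1% were highest and 13.7% lowest in sample 3 of both groups, so these 3 and 1 of 8 genes are to be read against shares of that order. Of the 10 axis genes, 3 were lowest in sample 3 of both groups (Igfbp1, Igf1 and Igf1r) and 2 highest (Igfals and Stat5b). Ppargc1a was at -4.21, -3.92 and -2.85 in control SHPCs and at -3.61, -3.75 and -2.14 in SHPCs with BM-MCs. Igfbp1 and Pck1 are both known as genes that insulin represses, and in sample 3 of both groups the first was at its lowest and the second at its highest. What set these samples apart was not tested.

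**Figure D4:**
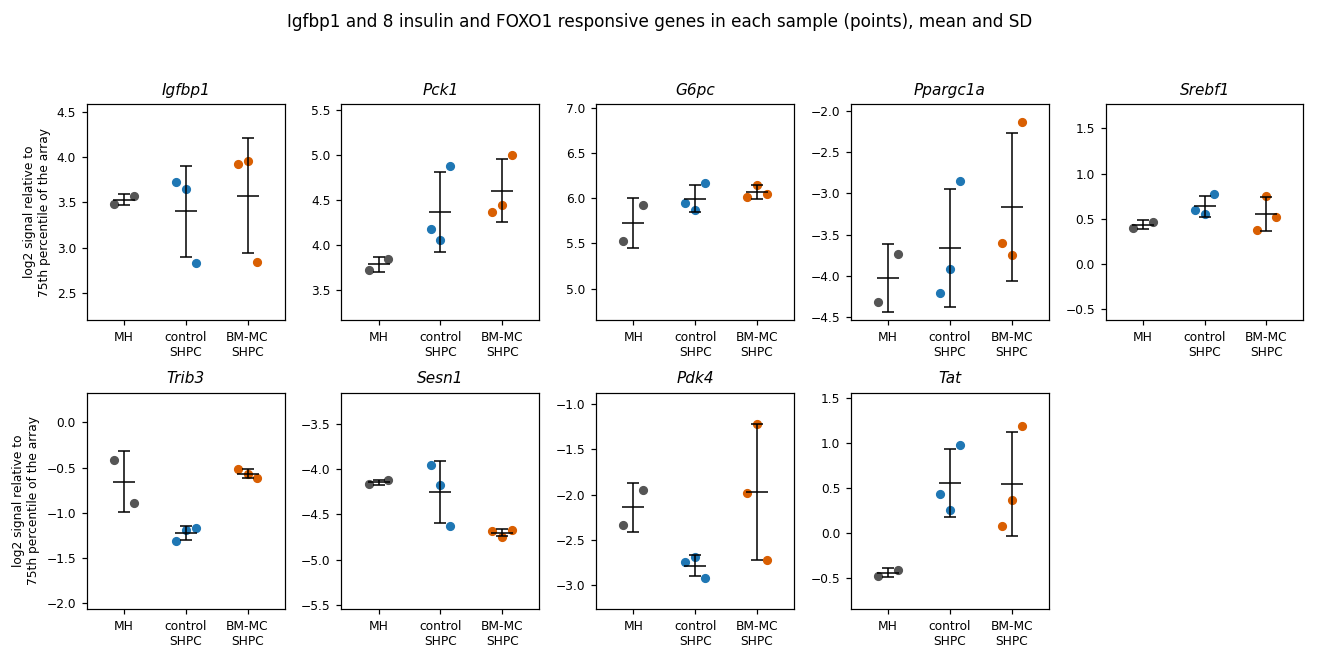
Log2 signal of Igfbp1 and of the 8 other insulin and FOXO1 responsive genes relative to the 75th percentile of the array, by sample within MHs (grey), control SHPCs (blue) and SHPCs with BM-MCs (orange), with mean and SD; within a group, samples 1 to 3 run from left to right. Sample 3 of both SHPC groups is lowest for Igfbp1 and highest for Pck1, Ppargc1a and Tat.

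None of those 8 genes passed the adjusted threshold in any comparison (limma; 2 of 8 reached an unadjusted p under 0.05 with BM-MCs and in control SHPCs against MHs, and 3 in SHPCs with BM-MCs against MHs, beside 16.6%, 20.2% and 14% of all probes). Trib3, an inhibitor of insulin signalling through AKT, was 0.66 higher with BM-MCs than in control SHPCs (SE 0.10, adjusted p = 0.11 by limma) with no overlap. Sesn1, a stress sensor, differed by -0.45 and Pdk4, a brake on pyruvate oxidation, by 0.82 (adjusted p = 0.30 and 0.33 by limma). In control SHPCs against MHs, Trib3 differed by -0.57, Tat by 0.99 and Pck1 by 0.58. In SHPCs with BM-MCs against MHs, Sesn1 differed by -0.56, Tat by 0.98 and Pck1 by 0.82.

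The SOCS family holds the feedback inhibitors of cytokine receptors, the growth hormone receptor among them. Of its 7 genes beside Socs2, Socs1 was too dim to be tested. At an unadjusted p under 0.05 (limma), 3 of the 6 tested were higher with BM-MCs than in controls, beside 11.1% of all probes. In controls against MHs 3 were lower (13.9% of probes). With BM-MCs against MHs, 2 were higher and 1 lower, beside 14% of probes in either direction. Cish, a STAT5 target whose product blocks the receptor as Socs2 does, was at -4.12 and -3.65 in MHs, -3.54, -3.69 and -3.57 in control SHPCs, and -2.33, -2.40 and -1.85 in SHPCs with BM-MCs. All 3 samples with BM-MCs lay more than 1 log2 unit above the 5 others. Against MHs, Cish rose by 1.69 (SE 0.21, 3.23-fold, adjusted p = 0.035 by limma), the 1 call among the 6 genes tested, where 0.281% of all probes passed. Against control SHPCs it differed by 1.41 (SE 0.17, 2.66-fold), with an adjusted p of 0.074 (limma) that became 0.039 without control sample 3. With the sets of arrays as a block the differences were 1.65 and 1.38 and neither passed (adjusted p = 0.32 and 0.22 by limma), and no set held both MHs and SHPCs with BM-MCs. Control SHPCs and MHs differed by 0.28 (adjusted p = 0.48 by limma). Cish and Socs2 were thus both above the controls and the MHs in every sample with BM-MCs, but for Socs2 the controls were also below the MHs.

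Without MH sample 1 the Cish difference from MHs was 1.45 and no longer passed (adjusted p = 0.25), and the call was also lost without MH sample 2, without any of the 3 controls, and without BM-MC sample 1 or 2, at adjusted p-values from 0.052 to 0.11 (limma). In the other members of the family, Socs3, induced by cytokines of the IL-6 group, was 0.57 higher with BM-MCs than in controls and 0.62 higher than in MHs (adjusted p = 0.25 and 0.29 by limma), with no overlap in either comparison. Socs7 differed by 0.36 with BM-MCs and by -0.48 in control SHPCs against MHs. Socs5 differed by -0.41 in control SHPCs and by -0.55 in SHPCs with BM-MCs against MHs, and Socs4 by -0.38 in control SHPCs. None of these passed the adjusted threshold.

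The promoter of Cish is shown because Cish was the feedback gene that passed, and STAT5 is known to act on it. Its window held 4 matches to TTCNNNGAA, the palindromic form of a STAT site, where 8.87% of the 33469 windows held any and none of the 9 axis promoters in the table did. The absence of these letters says nothing about STAT5 elsewhere in those genes. The matches, in capitals, run from -241 to -233, -230 to -222, -136 to -128 and -119 to -111 before the start.
Cish, GRCr8 chr8:116850719-116850968, plus strand: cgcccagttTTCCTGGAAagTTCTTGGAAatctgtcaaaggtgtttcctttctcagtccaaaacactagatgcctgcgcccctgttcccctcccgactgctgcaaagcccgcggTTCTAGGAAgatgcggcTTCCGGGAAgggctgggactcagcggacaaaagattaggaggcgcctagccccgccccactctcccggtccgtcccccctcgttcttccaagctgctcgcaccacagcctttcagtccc

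**Figure D5:**
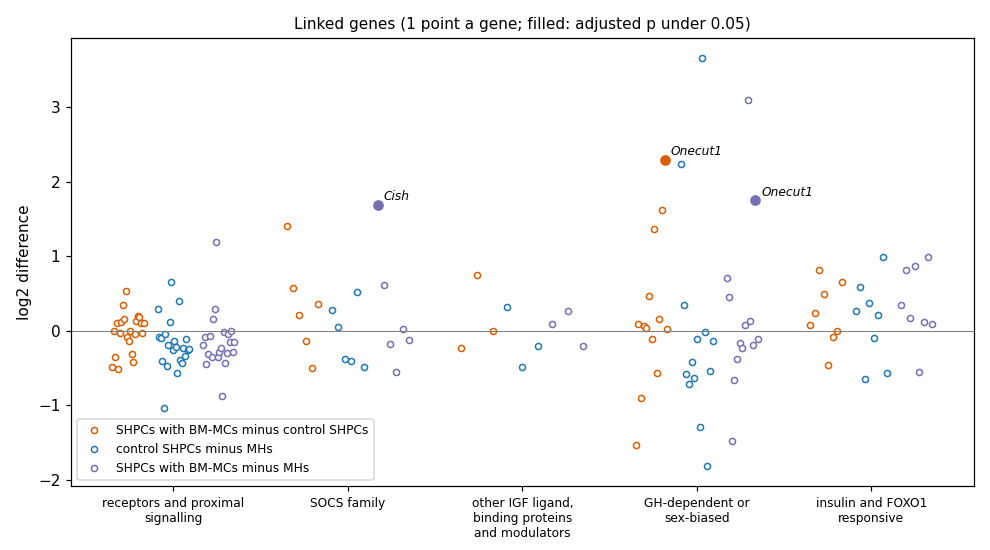
Log2 differences of the tested genes of 5 linked lists in the 3 comparisons, 1 point a gene; filled and named points have an adjusted p under 0.05. Cish passes against MHs, and Onecut1 passes against both control SHPCs and MHs.

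Of the 13 tested genes that depend on growth hormone or differ by sex in rat liver, 1 passed with BM-MCs in each comparison (limma). Of all tested probes, 0.0216% passed against controls and 0.281% against MHs. No gene of the list passed in control SHPCs against MHs. At an unadjusted p under 0.05 (limma), 6 of 13 were called with BM-MCs against controls, beside 16.6% of all probes. In controls against MHs 6 were called (20.2%), and with BM-MCs against MHs 3 were (14%). This list, like the other linked lists, was chosen with earlier results of these data known, so its counts are a description. The gene that passed was Onecut1, which encodes the transcription factor HNF6, a gene that growth hormone is known to induce. Onecut1 was at 0.58 and 0.27 in MHs, -0.11, -0.19 and -0.044 in control SHPCs, and 2.19, 2.01 and 2.35 in SHPCs with BM-MCs. It rose by 2.30 against controls (SE 0.13, 4.92-fold, adjusted p = 0.023 by limma) and by 1.75 against MHs (SE 0.15, 3.37-fold, adjusted p = 0.025 by limma). Leaving out 1 sample moved these differences to between 2.21 and 2.38 and between 1.60 and 1.91. The call against controls was lost without control sample 1 or 2 or BM-MC sample 1 or 2, at adjusted p-values up to 0.19 (limma). That against MHs was lost without either MH, control sample 1 or 2, or BM-MC sample 2, at up to 0.13 (limma). With the sets of arrays as a block the differences were 2.23 and 1.64, and neither passed (adjusted p = 0.063 and 0.19 by limma). The erythroid sum and the granulocyte and leukocyte sum were lower in every sample with BM-MCs than in every control. Their part in the Cish and Onecut1 values was not tested.

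Bcl6, a repressor that STAT5 is known to silence, was at 0.49 and -0.042 in MHs, -0.013, -0.10 and -0.93 in control SHPCs, and -1.09, -1.19 and -1.47 in SHPCs with BM-MCs. It differed from MHs by -1.48 (SE 0.31, adjusted p = 0.16 by limma), with no overlap. Obp3, which encodes an alpha-2u globulin that is male-biased in rat liver, was 1.62 higher with BM-MCs than in control SHPCs and -1.82 in controls against MHs (adjusted p = 0.13 and 0.078 by limma). It was not well above background in control sample 3, control sample 2 had no mark, and after normexp the values were 0.59 and -0.78. A1bg, female-biased and induced by continuous growth hormone, had differences of the opposite sign, -1.53 with BM-MCs and 2.25 in controls against MHs (adjusted p = 0.14 and 0.059 by limma). The latter passed in 4 of 22 other settings with an adjusted p. Its 3 controls were within 3.12 to 3.25, and the other 5 samples within 0.38 to 2.26. Cyp2c11, the classic male-specific P450, differed by -0.64 in controls against MHs (adjusted p = 0.12 by limma), and Cyp3a2, also male-biased, was at -2.95 and -2.65 in MHs, 0.61, 0.80 and 1.20 in control SHPCs, and -1.47, -0.38 and 2.77 in SHPCs with BM-MCs. Both SHPC groups lay above the MHs in every sample, by 3.66 in control SHPCs (adjusted p = 0.14 by limma; 0.30 with BM-MCs). Cyp2c12, the female-specific P450, Cyp2c13 and Cyp2a2 are named outside the rule. Cyp2c12 stayed within 6.64 to 7.06 in all 8 samples. With BM-MCs against controls, Cyp2c13 differed by 1.37, Cyp2c11 by 0.47, Cyp2a2 by 0.038 and Cyp3a2 by -0.56 (adjusted p = 0.20 to 0.94 by limma). In controls against MHs, Cyp2c13 differed by -1.29 and Cyp2a2 by -0.42 (adjusted p = 0.15 and 0.37 by limma).

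None of the 22 receptors and proximal signalling genes passed in any comparison (limma; 3, 5 and 5 of 22 at an unadjusted p under 0.05 with BM-MCs, in controls against MHs, and with BM-MCs against MHs, beside 16.6%, 20.2% and 14% of all probes). With BM-MCs, Foxo1, the transcription factor that insulin and IGF-1 inactivate, differed by -0.35, Prlr, the prolactin receptor, by -0.42, and Insr, the insulin receptor, by 0.35, each with no overlap (adjusted p = 0.22 to 0.28 by limma). In control SHPCs against MHs, Igf2r, which clears IGF-2, differed by -0.48, the phosphatase Ptpn11 by -0.39 and the PI3-kinase subunit Pik3r1 by -0.56. In SHPCs with BM-MCs against MHs, Pik3r1 differed by -0.88, Ptpn11 by -0.43 and Foxo1 by -0.44, again with no overlap. The median of this list was -0.0031 with BM-MCs and -0.23 in controls against MHs, beside 0.027 and -0.08 over all probes.

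The remaining IGF genes were mostly dim. Of 10 on the list, Igfbp5, Igfbp6, Igfbpl1, Pappa, Stc1 and Stc2 were not tested and Pappa2 was not found by name. Igf2, the fetal ligand, differed by 0.75 with BM-MCs (SE 0.45, adjusted p = 0.43 by limma), Htra1, a protease, by -0.23, and Igfbp7 by 0.0015, with overlap for all 3. Htra1 was 0.32 higher in control SHPCs than in MHs with no overlap (adjusted p = 0.24 by limma), where Igf2 differed by -0.49 and Igfbp7 by -0.20. Against MHs, SHPCs with BM-MCs differed by 0.26, 0.093 and -0.20 for Igf2, Htra1 and Igfbp7.

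Over the 8 arrays, the genes whose pattern was most like that of Igf1 among 14443 named genes were Zfp958, Btbd10 and LOC100911813, with Pearson correlations of 0.98 each. Those most like Ghr were Fgf1, Cdc42bpb and Klf3, at 0.97 to 0.98, and among those most like Igfbp1 were Tgif1 and C1qtnf5, at 0.93 each. The samples share a slide and 3 groups, and the correlations are a description.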

How the data were processed

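Total RNA of laser-dissected clusters was amplified, labelled with Cy3 and hybridised to rat Agilent arrays, and the authors read the scans with Agilent Feature Extraction 10.7 (per the labels). Deposited intensity values were the processed signals of the scanner files and of the value table, which matched on every array; 1 scanner file ended early, so its signals came from the deposited intensity table and its background marks were incomplete. Signals were log2 transformed and scaled to the 75th percentile of each array after leaving out control and outlier spots, and spots of a probe were averaged. In control SHPC sample 2 only 19479 of 58717 non-control spots had marks, and any outliers among the unmarked spots were kept. A probe was tested where at least 3 of 7 arrays with complete marks were well above background (23111 of 45598). limma 3.58.1 (R 4.3.3) tested the differences, p-values were adjusted by Benjamini-Hochberg over all tested probes, and 0.05 was the threshold: the SHPC groups in a fit of their own samples, and each against MHs in a fit of all 8. The study's methods named Student's t test, which was run as an alternative. On simulated data the fits recovered 41%, 52% and 39% of 2-fold changes and 68%, 86% and 85% of 4-fold changes, in the order SHPCs with BM-MCs against controls, controls against MHs, and SHPCs with BM-MCs against MHs. The number of arrays limits the precision.

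Each gene is given by its brightest tested probe. Named linked genes are those past the threshold in a comparison or, where fewer than 3 of a list passed, the 3 with the lowest unadjusted p. Probes were named through RefSeq accessions (21109), current symbols (6684) or synonyms (424), 7635 kept the file's name and 9746 had none. All 17 axis probes were named by accession. A gene of the insulin list and a correlated gene are not reported here. Genes and lists were chosen with earlier results of these data known. Alternatives changed scaling, background correction, dim-probe filter, outlier spots, replicate block, set of arrays, probe choice, samples fitted, test and each sample in turn. Promoter sequences are RefSeq's, on GRCr8.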

Additional observations from a re-analysis of the deposited data

How the results depend on the processing

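Under 23 other settings none of the 10 axis genes passed the adjusted threshold in any comparison, apart from the methods' t-test without adjustment, which called 2 higher with BM-MCs (Ghr and Socs2) and 1 lower in control SHPCs against MHs (Igf1). Of 654 values of single axis genes recomputed, 592 kept their direction and their side of the threshold, 3 were these t-test calls and 59 turned in sign, none of them past the threshold. Among settings with an adjusted p, Cish kept a positive difference from MHs, at 1.13 to 1.93, and passed in 7 of 21; against controls it passed in 2 of 20. Onecut1 passed in 11 of 20 against controls and 11 of 21 against MHs. Of the 10 genes, Socs2 and Igf1r had no value where every array with marks had to be well above background.

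Scaling each array to its median gave, with BM-MCs against controls, -0.057 for Igf1, -0.021 for Igfals, -0.0145 for Igfbp1, -0.16 for Igfbp2, -0.15 for Igfbp3, -0.18 for Igfbp4 and -0.19 for Igfbp7. Against MHs it gave -0.058 for Igfals, -0.13 for Igfbp1, -0.16 for Igfbp2, -0.13 for Stat5b and -0.083 for Htra1. Quantile normalization gave -0.025 for Igfbp7 with BM-MCs, 0.038 for Igfals and 0.037 for Igfbp2 in controls against MHs, and -0.094 for Stat5b with BM-MCs against MHs. Without scaling Igfbp2 was -0.025 there. Normexp with quantile normalization gave -0.0067 for Igfbp7 with BM-MCs, 0.0054 for Igfals in controls against MHs and -0.050 for Stat5b with BM-MCs against MHs. With outlier spots kept, Igfbp7 was -0.0072 with BM-MCs and Igfbp2 0.030 in controls against MHs.

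No label pairs the samples by replicate number. Deviations of same-numbered SHPC samples correlated at 0.13, 0.078 and 0.17, and those of differently numbered samples at -0.15 to 0.082. Every sample but control SHPC sample 2, at 0.082 with BM-MC sample 1, correlated best with its own number, a hint from the data and not from the design. With the replicate number as a block, 0 axis genes passed in each comparison and the calls over all probes went from 5 to 0 with BM-MCs against controls. Igfbp1 was 0.20 and Igfbp2 0.00082 in controls against MHs under the block, and Stat5b -0.095 with BM-MCs against MHs. The Cish difference from MHs was 1.60 (adjusted p = 0.13) and those of Onecut1 were 2.30 and 1.69 (adjusted p = 0.19 and 0.12), none past the threshold.

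With the set of arrays as a block, and the same within the 1 set that held both groups, Igfals was -0.044, Igfbp3 -0.0054 and Igfbp4 -0.10 with BM-MCs against controls, and Igfbp1 0.16, Igfbp2 0.031 and Stat5b -0.041 in controls against MHs. Against MHs with BM-MCs, where no set holds both groups, the block gave -0.20 for Igfals, 0.84 for Igf1r, -0.53 for Stat5b, 0.015 for Igfbp7, -0.084 for Htra1 and 0.0083 for Sesn1. The causes of these turns were not tested.

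Leaving out 1 sample turned the sign of values that lay near 0. With BM-MCs against controls the ranges were -0.11 to 0.55 for Igfbp1, -0.039 to 0.12 for Igfbp2, -0.092 to 0.17 for Igfbp3, -0.058 to 0.064 for Igfbp4, -0.12 to 0.11 for Igfbp7 and -0.28 to 0.091 for Stat5b. In controls against MHs they were -0.31 to 0.20 for Igfals, -0.29 to 0.16 for Igfbp1, -0.094 to 0.058 for Igfbp2 and -0.041 to 0.33 for Stat5b. With BM-MCs against MHs they were -0.48 to 0.063 for Ghr, -0.14 to 0.37 for Igfals, -0.15 to 0.41 for Igfbp1, -0.060 to 0.10 for Igfbp2, -0.32 to 0.023 for Igfbp3, -0.11 to 0.64 for Igf2 and -0.11 to 0.21 for Stat5b.

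Signal over background limits Socs2 and Igf1r, which were dim in control sample 3, and the fits recovered 39% to 52% of simulated 2-fold changes, so that a change of that size can be missed.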
